A study of Mus musculus with 85 samples.

Results

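Long-chain fatty acids enter mitochondria through the carnitine shuttle, and the 7 mouse genes described here encode its enzymes, its carrier and the importer of carnitine itself: Slc22a5, Cpt1a, Cpt1c, Slc25a20, Cpt2, Crat and Crot. They were picked by gene symbol, and all 7 were found among the 48479 features of the deposited tables. In the knockouts labelled Mof, Kansl2 and Kansl3, the carrier Slc25a20 and the enzyme Cpt2 were lower than in Cre controls in each of 3 comparisons of whole brain and each of 3 comparisons of sorted neural cells. Crat passed the test in none of those 6. Neither Slc25a20 nor Cpt2 passed in endothelial cells, pericytes or microglia of the same kind of embryo, where few genes or none passed. In the endothelial, Mof knockout pericyte and microglia comparisons, none of all the genes tested passed. In pericytes under the Kansl2 and Kansl3 labels, 1.26% and 1.24% of all genes passed as lower, against 22.1% and 28.8% in neural cells. Whether the declines differ between cell types was not tested.

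The study followed mouse brains at E14.5 (mid-gestation) in which Mof, Kansl2 or Kansl3 was deleted from the neural lineage with Nestin-Cre, and compared these neural knockouts (nKO) with Cre controls, which are labelled as carrying Cre as well. The Nestin promoter drives Cre in neural progenitors. MOF, encoded by Kat8, is a histone acetyltransferase, and KANSL2 and KANSL3 are its partners in the non-specific lethal (NSL) complex. RNA came from whole brain and from neural cells (3 libraries per group, all 4 genotypes), and from endothelial cells (4 Cre, 4 Mof nKO, 3 Kansl2 nKO, 3 Kansl3 nKO), pericytes (4 Cre, 3 Mof nKO, 3 Kansl2 nKO, 4 Kansl3 nKO) and microglia (3 Cre, 3 Mof nKO) sorted by flow cytometry. In a separate culture experiment, primary pericytes from adult brain, of genotype WT by their labels, received C14:0 at 200 µM, C16:0 at 200 µM, C20:0 at 20 µM and C24:0 at 10 µM bound to albumin, or a vehicle of ethanol and albumin (3 libraries each). Strain is not given for any group. The labels do not say that the libraries of a group are separate animals or cultures, so p-values measure the spread between these libraries. The 3 knockout comparisons of each cell population share their Cre libraries.

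Fatty acids must be activated to acyl-CoA and then handed to carnitine before they can cross the inner mitochondrial membrane. Slc22a5 (OCTN2) takes carnitine up through the plasma membrane. Cpt1a, on the outer mitochondrial membrane, makes acylcarnitine and is the step that malonyl-CoA inhibits; its relative Cpt1c is mostly found in neurons, sits in the endoplasmic reticulum and has little transferase activity. Slc25a20 exchanges acylcarnitine for free carnitine across the inner membrane, and Cpt2 turns acylcarnitine back into acyl-CoA for beta-oxidation. Crat handles short-chain acyl groups and Crot medium-chain acyl groups made in peroxisomes. In the brain, beta-oxidation is known mainly from progenitor cells, glia and vessels.

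The promoters of Slc25a20 and Cpt2 are printed because these genes fell together. Of 7 genes, 6 had an entry in the RefSeq promoter table (build GRCm38.p6, 250 bases before to 50 after the start), and Crat had none. Capitals mark CCGGAAGT, searched on both strands.
Cpt2, chr4:107923540-107923839, minus strand: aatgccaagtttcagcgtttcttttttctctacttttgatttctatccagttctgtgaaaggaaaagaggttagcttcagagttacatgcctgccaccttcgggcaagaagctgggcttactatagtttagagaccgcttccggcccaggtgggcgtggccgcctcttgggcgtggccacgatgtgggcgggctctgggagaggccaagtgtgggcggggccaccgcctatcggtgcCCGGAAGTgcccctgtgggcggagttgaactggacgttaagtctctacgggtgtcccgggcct
Slc25a20, chr9:108661886-108662185, plus strand: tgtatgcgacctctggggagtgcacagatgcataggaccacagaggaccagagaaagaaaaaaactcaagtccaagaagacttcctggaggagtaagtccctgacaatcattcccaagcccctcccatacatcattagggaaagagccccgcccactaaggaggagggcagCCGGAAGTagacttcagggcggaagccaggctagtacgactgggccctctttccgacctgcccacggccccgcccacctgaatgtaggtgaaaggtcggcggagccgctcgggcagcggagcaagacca
CCGGAAGT stood once in each of these windows, with its first base at -13 from the start in Cpt2 and at -79 in Slc25a20, and in none of the other 4 (Cpt1a, Cpt1c, Crot, Slc22a5). It stood in 3.89% of 32851 promoters of the same length. For comparison, the window of Crot, a gene with a smaller decline, has no match. Neither has that of Slc22a5, which also passed as lower in neural cells of each knockout (log2 fold changes of -0.56, -0.92 and -0.58). A link between this sequence and the declines was not tested.
Crot, chr5:8997097-8997396, minus strand: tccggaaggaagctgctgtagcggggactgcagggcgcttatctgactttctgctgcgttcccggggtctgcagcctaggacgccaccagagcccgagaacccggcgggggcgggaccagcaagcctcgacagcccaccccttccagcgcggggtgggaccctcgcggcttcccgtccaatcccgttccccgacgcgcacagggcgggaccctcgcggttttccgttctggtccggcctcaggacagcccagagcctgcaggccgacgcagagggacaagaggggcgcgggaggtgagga
GGGCGG, present in 35.7% of promoters, stood in all 6 windows. CCAAT (37.4% of promoters) stood in Crot, Cpt1c and Cpt1a, and AGGTCA (16.3%) in Cpt1c and Cpt1a. CACGTG (7.15%), TGACGTCA (1.79%) and TCAAGGTCA (0.423%), which holds AGGTCA, stood in none of the 6. The windows of Cpt2 and Slc25a20 were 57.3% and 58.0% G and C with 17 and 13 CG pairs, against medians of 52.7% and 7 over all promoters.

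The gene bodies lie on separate chromosomes in GRCm38.p6. Slc25a20 spans chr9:108662136-108684642, Cpt2 chr4:107903982-107923589, Cpt1c chr7:44958483-44974880 and Slc22a5 chr11:53864542-53891796. Cpt1a (chr19:3322326-3385735) overlaps the long non-coding RNA gene Gm36532 by 4622 bases, Crot (chr5:8966033-8997146) the pseudogene Gm15610 by 481 bases, and Crat (chr2:30400476-30416017) its neighbour Dolpp1 by 54 bases. Whether counting used strand is not given in the sources used here, so reads in those overlaps cannot be assigned.

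Libraries held from 1572515 reads (a pericyte library) to 51854152 (a culture library), and whole brain and neural libraries between 5687012 and 12665665. Kat8 was lower in all 6 knockout comparisons of whole brain and neural cells (log2 fold changes from -0.57 to -1.42), whereas Kansl2 was not lower in libraries labelled Kansl2 nKO (0.46 in whole brain, 0.09 in neural cells) nor Kansl3 in those labelled Kansl3 nKO (0.28 and 0.28). Directions for those 2 knockouts therefore rest on the labels. The sorted populations showed their own markers: 6054 to 8596 CPM (a gene's reads scaled to a common library total) summed over 6 endothelial markers in endothelial cells, 5520 to 13450 over 7 pericyte markers in pericytes, and at most 6.23 and 0.744 for endothelial and microglial markers in neural cells. Neural progenitor markers were not limited to neural cells (1003 to 1861): they summed to 858 to 2073 in endothelial cells and to 1432 to 5518 in pericytes. Part of the list is not specific to progenitors, such as Vim at 905 to 1048 in Cre pericytes, but Fabp7 was at 1484 to 2194 and Sox2 at 43.4 to 91.1 there, against 199.5 to 210.5 and 138 to 186 in Cre neural cells. Whole-brain library K2_63 stood apart, with choroid plexus markers at 294 CPM against at most 55.0 in the other 11 libraries.

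Of the 7 genes, 2 fell in Mof nKO whole brain, where 4.04% of 16290 genes tested fell. Under the Kansl2 label 4 fell, against 16.2% of all genes, and under the Kansl3 label 2 fell, against 18.8%. None rose. The median log2 fold change of the 7 was -0.25, -0.35 and -0.07, beside -0.01, 0.04 and -0.01 over all genes.

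Slc25a20 was lower in every knockout of whole brain. Its level, in CPM scaled by the trimmed mean of M values (TMM), was 19.4, 16.8 and 17.99 in the 3 Cre libraries. It was 9.80, 8.86 and 13.9 in Mof nKO, 7.13, 6.16 and 7.98 in libraries labelled Kansl2 nKO, and 9.77, 6.34 and 7.93 in those labelled Kansl3 nKO. All 9 knockout libraries lay below the 3 controls, and the nearest was one Mof nKO library at 77.05% of the control mean. The log2 fold change was -0.73 ± 0.18 (SE) in Mof nKO (adjusted p = 0.0343), -1.35 ± 0.19 under the Kansl2 label (adjusted p = 0.000176) and -1.17 ± 0.19 under the Kansl3 label (adjusted p = 0.000486).

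Cpt2, the enzyme that follows the carrier, moved the same way. Its whole-brain values were 6.07, 6.46 and 5.81 CPM in Cre, 3.27, 1.79 and 3.05 in Mof nKO, 3.95, 1.48 and 2.43 under the Kansl2 label, and 1.46, 1.67 and 1.65 under the Kansl3 label. No knockout library reached a control, and the Kansl3-labelled libraries were the tightest, at 26.0% ± 1.91 (SD, n = 3) of the control mean. Its log2 fold changes were -1.17 ± 0.29 in Mof nKO (adjusted p = 0.0324), -1.15 ± 0.29 under the Kansl2 label (adjusted p = 0.00857) and -1.94 ± 0.31 under the Kansl3 label (adjusted p = 0.000495). In Mof nKO both calls stood when Mof_200 was left out, and leaving out any other of the 6 libraries lost them (adjusted p from 0.0717 to 0.142 for Cpt2 and from 0.0663 to 0.139 for Slc25a20).

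The carnitine importer Slc22a5 and the peroxisomal enzyme Crot made up the remaining 2 calls under the Kansl2 label. Slc22a5 stood at 10.9, 12.4 and 16.2 CPM in Cre and at 7.48, 9.23 and 8.44 under that label, with no overlap (-0.66 ± 0.17, adjusted p = 0.0109); without Cre_19 it did not pass (-0.49, adjusted p = 0.0537). Crot stood at 19.5, 18.98 and 18.9 CPM in Cre and at 13.4, 16.1 and 15.6 under the label, also without overlap (-0.35 ± 0.11, adjusted p = 0.0320). That call was lost with DESeq2 (adjusted p = 0.0610), with no filter on low counts (0.104), with the 6 libraries of those groups alone (0.0710) and without any of 5 single libraries (0.0516 to 0.111). In Mof nKO and under the Kansl3 label, Slc22a5 had log2 fold changes of -0.30 and -0.11 and Crot of -0.13 and -0.07, none past the threshold.

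Cpt1a, Cpt1c and Crat did not pass in whole brain. Cpt1a was at 16.2, 18.9 and 16.1 CPM in Cre, at 13.8 to 14.9 in Mof nKO, at 16.9 to 21.2 under the Kansl3 label, and at 29.9, 15.9 and 16.3 under the Kansl2 label. The high value belongs to K2_63, the library with choroid plexus markers; without it the Kansl2-label change went from 0.30 to -0.10, and its part in the value was not tested. Cpt1c ran from 45.1 to 56.8 CPM in Cre and from 45.4 to 70.2 in the 9 knockout libraries, with log2 fold changes of 0.05, 0.25 and 0.19. Crat was flat under the Kansl2 and Kansl3 labels (0.01 ± 0.09 and 0.02 ± 0.09). In Mof nKO it stood at 25.4, 25.5 and 26.9 CPM against 29.2, 29.8 and 30.3 in Cre, which do not overlap, but the change of -0.20 ± 0.09 did not pass (adjusted p = 0.181).

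**Figure D1:**
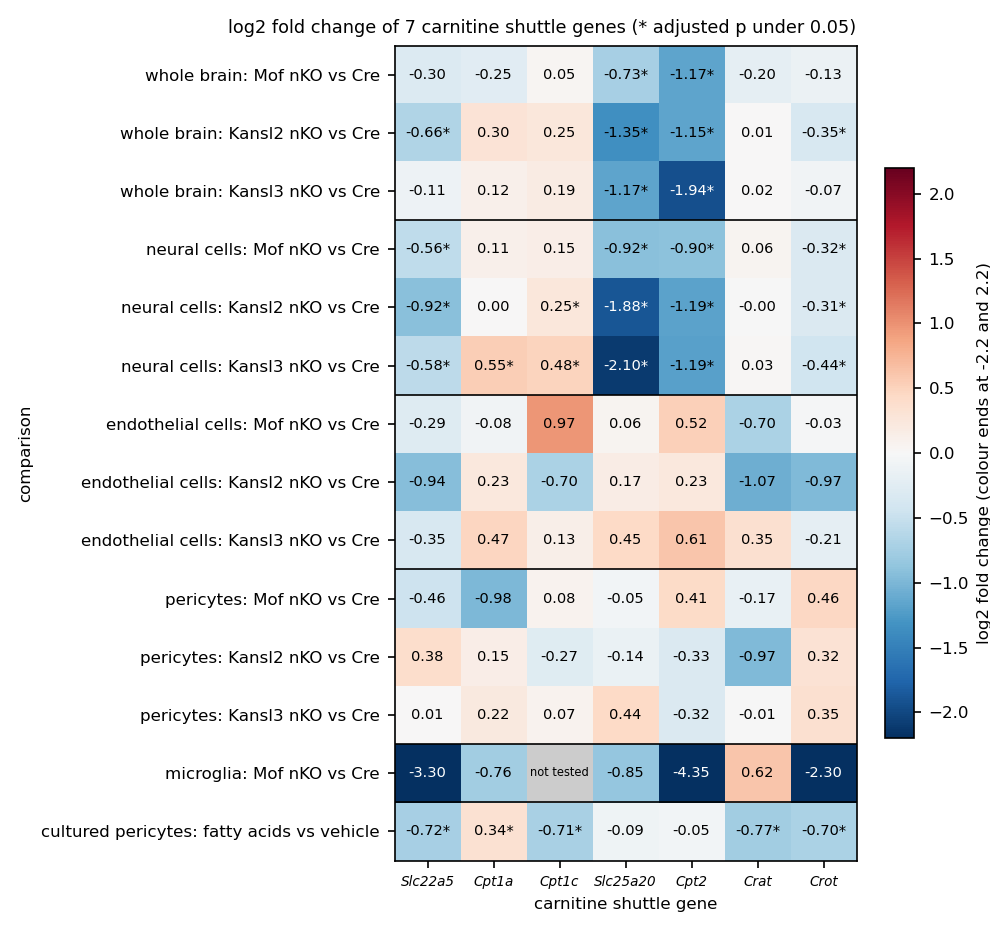
Log2 fold changes of the 7 genes (columns, from importer to enzymes) in the 14 comparisons with a control (rows); colour and number give the value, and an asterisk an adjusted p under 0.05. Slc25a20 and Cpt2 carry an asterisk in all 6 rows of whole brain and neural cells and in none of the other 8. In the endothelial, Mof nKO pericyte and microglia rows, none of all the genes tested passed.

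Whole brain holds all cell types, and fewer cells of a type cannot be told apart from less RNA per cell. Summed microglial markers were 21.5 to 23.4 CPM in Cre whole brain, 36.5 to 43.2 in Mof nKO, 68.9 to 114 under the Kansl2 label and 81.9 to 94.2 under the Kansl3 label, and erythroid markers ranged from 264 to 364 in Cre and up to 1368 in knockouts. Neural progenitor markers summed to 1050 to 1312 in Cre, 893 to 1121 in Mof nKO, 890 to 1328 under the Kansl2 label and 781 to 949 under the Kansl3 label, where 3 of 6 fell. The part of these markers in the whole-brain values was not tested. In sorted neural cells, where microglial markers summed to at most 0.744 CPM, the declines of Slc25a20 and Cpt2 were measured separately.

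Slc25a20 and Cpt2 were also lower in sorted neural cells. In the authors' normalized values (reads divided by a size factor for each library, set separately in each table), Slc25a20 was at 214, 200.2 and 200.6 in Cre and at 85.3, 134.2 and 110.0 in Mof nKO. Against the same Cre libraries it was at 63.5, 59.9 and 52.8 under the Kansl2 label (Cre 213 to 228 in that table) and at 51.9, 65.3 and 69.6 under the Kansl3 label (Cre 262 to 280). No knockout library overlapped a control: means were 53.6% ± 11.9, 27.0% ± 2.499 and 23.2% ± 3.44 (SD, n = 3) of the control mean. The fold changes, here on the log2(value + 1) scale, were -0.92 ± 0.14 (adjusted p = 7.53e-05), -1.88 ± 0.14 (adjusted p = 1.82e-07) and -2.10 ± 0.14 (adjusted p = 6.01e-08).

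Cpt2 was at 48.9, 46.6 and 49.96 in Cre and at 19.3, 30.6 and 27.8 in Mof nKO neural cells. Under the Kansl2 label it was at 26.4, 15.97 and 25.5 (Cre 49.5 to 53.1) and under the Kansl3 label at 24.1, 34.4 and 24.2 (Cre 61.1 to 65.6). Again no groups overlapped, and the 3 knockouts kept 53.4%, 43.9% and 43.4% of the control mean. The changes were -0.90 ± 0.23 (adjusted p = 0.00483), -1.19 ± 0.24 (adjusted p = 0.00108) and -1.19 ± 0.21 (adjusted p = 0.000234). In neural cells these calls of Cpt2 and Slc25a20 stood in all the alternatives run, as did the whole-brain calls under the Kansl2 and Kansl3 labels.

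**Figure D2:**
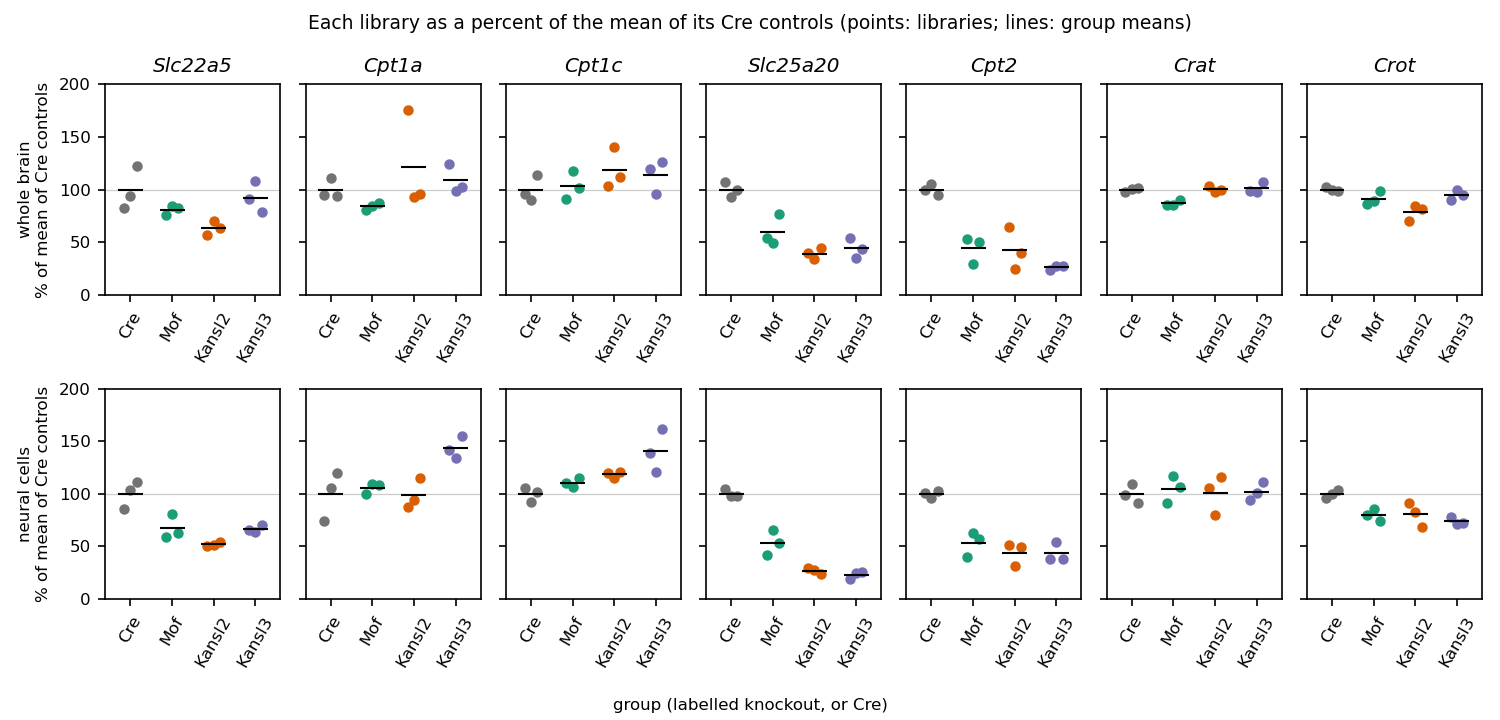
Each library as a percent of the mean of its Cre controls, for the 7 genes in whole brain (top) and neural cells (bottom); points are libraries and lines group means. For Slc25a20 and Cpt2 every knockout point lies below every Cre point in both rows. Crat knockout means lie between 87.1% (Mof nKO whole brain) and 104.9% (Mof nKO neural cells) of control.

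In Mof nKO neural cells 4 of the 7 genes fell, where 17.1% of 13724 genes tested fell. Under the Kansl2 label 4 fell and 1 rose, against 22.1% and 20.1% of 13903 genes. Under the Kansl3 label 4 fell and 2 rose, against 28.8% and 26.4% of 14534 genes. The 4 that fell were Slc25a20, Cpt2, Slc22a5 and Crot each time, in comparisons that share their controls. Erythroid markers summed to 439 to 637 CPM in Cre neural cells, 558 to 1103 in Mof nKO, 413 to 862 under the Kansl2 label and 997 to 2011 under the Kansl3 label. Neural progenitor markers summed to 1003 to 1251 in Cre, 1057 to 1227 in Mof nKO, 1203 to 1861 under the Kansl2 label and 1505 to 1814 under the Kansl3 label, where 3 of 6 rose and 2 fell. Endothelial markers, near 0 throughout, summed to 2.06 to 2.27 in Cre and 4.66 to 6.23 under the Kansl3 label. The part of these markers in the values was not tested. Medians of the 7 were -0.32, -0.31 and -0.44, beside 0.00, 0.01 and 0.01 over all genes.

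Slc22a5, which supplies the carnitine, was at 78.6, 95.2 and 102 in Cre neural cells and at 54.6, 74.4 and 57.7 in Mof nKO. Under the Kansl2 label it was at 49.1, 49.9 and 53.5 (Cre 83.5 to 109) and under the Kansl3 label at 78.7, 76.7 and 84.7 (Cre 103 to 134.3). Groups did not overlap in any of the 3 tables. Changes were -0.56 ± 0.17 (adjusted p = 0.0144), -0.92 ± 0.17 (adjusted p = 0.000479) and -0.58 ± 0.15 (adjusted p = 0.00410). The Mof call was lost without Cre184 (adjusted p = 0.0603), Cre188 (0.0817) or M643 (0.0561).

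Crot declined less. It was at 219, 229 and 236 in Cre and at 183.1, 195 and 170 in Mof nKO, at 222, 199.7 and 167 under the Kansl2 label (Cre 233 to 251.01) and at 233, 213 and 216 under the Kansl3 label (Cre 286 to 310). The knockout means were 80.1%, 80.9% and 73.8% of control, with no overlap. The change passed under the Kansl3 label (-0.44 ± 0.10, adjusted p = 0.00134) in all settings run. In Mof nKO (-0.32 ± 0.10, adjusted p = 0.0175) it was lost with DESeq2 on recovered reads (adjusted p = 0.0694), without Cre184 (0.0596) and without Cre188 (0.0724). Under the Kansl2 label (-0.31 ± 0.12, adjusted p = 0.0423) it was lost with DESeq2 (0.0903), with no filter (0.0516) and without any of 5 single libraries (0.0531 to 0.138).

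Cpt1a and its relative Cpt1c went the other way in neural cells under the Kansl3 label. There 26.4% of all 14534 genes tested passed as higher, so these rises cannot be read as particular to the shuttle. Cpt1a was at 121, 174 and 198 in Cre and at 233, 221 and 255 in that knockout, above all controls (0.55 ± 0.15, adjusted p = 0.00660). Cpt1c was at 424, 373 and 412 in Cre and at 560, 489 and 654 in the knockout, also above all controls (0.48 ± 0.10, adjusted p = 0.00101). Both calls stood in all settings run.

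Cpt1a did not pass in Mof nKO (0.11 ± 0.15, adjusted p = 0.599) or under the Kansl2 label (0.00 ± 0.17, adjusted p = 0.986), where groups overlapped. Cpt1c rose under the Kansl2 label, from 345.04, 302 and 334 to 392, 377 and 395 (0.25 ± 0.09, adjusted p = 0.0368). This call was lost with edgeR (adjusted p = 0.0538) and DESeq2 (0.0927) on recovered reads, with no filter (0.0577) and without Cre184 (0.184), Cre188 (0.0771), K2_345 (0.0746) or K2_351 (0.0531). In Mof nKO Cpt1c was at 340.1, 328.2 and 354 against 284 to 325, without overlap, and did not pass (0.15 ± 0.08, adjusted p = 0.183). Crat stayed between 156 and 225 in Mof and Kansl2-labelled knockouts and between 225 and 265 under the Kansl3 label, within or around its controls (changes of 0.06, 0.00 and 0.03; adjusted p of at least 0.690).

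The authors' deposited tables gave the same sign for all 6 declines of Slc25a20 and all 6 of Cpt2. In the authors' deposited table of Kansl2-labelled neural cells, Cpt1c had an adjusted p of 0.0900 and Crot of 0.0877, and in that of Mof nKO neural cells Crot had 0.0673. For Kansl2-labelled whole brain, where Crot passed here, their adjusted p was 0.180.

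The knockouts were then set against each other. These tests used edgeR on reads recovered from all 12 neural libraries and were added after the data had been seen. Slc25a20 stood at 12.8 ± 2.84 CPM (SD, n = 3) in Mof nKO, 6.55 ± 0.595 under the Kansl2 label and 5.64 ± 0.846 under the Kansl3 label. It was higher in Mof nKO than under the Kansl2 label by 0.97 ± 0.17 on the log2 scale (adjusted p = 0.00290) and than under the Kansl3 label by 1.17 ± 0.17 (adjusted p = 2.21e-05). Kansl2-labelled and Kansl3-labelled cells differed by 0.19 ± 0.18, which did not pass (adjusted p = 0.467). Those Slc25a20 calls stood without any single library.

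For Cpt2 no pair of knockouts passed: 3.01 ± 0.687, 2.52 ± 0.639 and 2.502 ± 0.540 CPM, with differences of 0.17 ± 0.28, 0.25 ± 0.27 and 0.08 ± 0.26. Cpt1a was at 15.5 ± 0.836 CPM in Mof nKO, 14.7 ± 2.22 under the Kansl2 label and 21.4 ± 1.55 under the Kansl3 label. It was lower in Mof nKO than under the Kansl3 label (-0.47 ± 0.15, adjusted p = 0.0150) and lower under the Kansl2 than under the Kansl3 label (-0.51 ± 0.15, adjusted p = 0.0162). The former was lost without M643 (adjusted p = 0.0698), the latter without K2_345 (0.0939) or K2_348 (0.0533). Cpt1c was lower in Mof nKO than under the Kansl3 label (-0.37 ± 0.10, adjusted p = 0.00515).

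That is 1 of 7 genes between Mof nKO and the Kansl2 label, where 6.63% of 14785 genes passed, 3 between Mof nKO and the Kansl3 label (42% of genes), and 1 between the Kansl2 and Kansl3 labels (24% of genes). In whole brain no gene of the 7 passed between knockouts, where edgeR called 8.65%, 13.5% and 0.0368% of genes. Slc25a20 was 0.62 ± 0.20 higher there in Mof nKO than under the Kansl2 label (adjusted p = 0.0638; 0.0194 with no filter), and Cpt1a had a difference of -0.55 ± 0.20 (adjusted p = 0.104; 0.0169 with no filter and 0.0374 without K2_68).

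In endothelial cells no gene of the 7 passed in any of the 3 comparisons. There limma called 0% of genes, while 1482, 975 and 1055 of 17152, 16649 and 16466 genes had an unadjusted p under 0.05 and DESeq2 on recovered reads called 344, 159 and 216. Slc25a20 was at 1070, 959, 1266 and 266 in the 4 Cre libraries and at 494, 1080, 1135 and 676 in Mof nKO. Cpt2 was at 477, 798, 668 and 348.2 in Cre and at 588, 1523, 789 and 529 in Mof nKO. Both genes overlapped between groups, and the lowest value of each in Cre came from Cre130.

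That library also had the highest share of mitochondrial reads (7.69%; the other endothelial libraries were at most 4.30%). Cpt1a was 492 in Cre130 against 1839 to 2903 in the other 3 controls. Without Cre130 the endothelial log2 fold changes of Slc25a20 went from 0.06, 0.17 and 0.45 (Mof, Kansl2 label, Kansl3 label) to -0.45, -0.34 and -0.06, and those of Cpt1a from -0.08, 0.23 and 0.47 to -0.63, -0.32 and -0.07. None passed either way.

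The 95% intervals show what the endothelial data allow. For Slc25a20 they ran from -0.98 to 1.10 in Mof nKO, from -0.94 to 1.28 under the Kansl2 label and from -0.63 to 1.52 under the Kansl3 label. For Cpt2 they ran from -0.33 to 1.37, from -0.59 to 1.05 and from -0.18 to 1.41. For the Kansl2 and Kansl3 labels both intervals lie above the neural point estimates of the same knockout (-1.88 and -2.10 for Slc25a20, -1.19 and -1.19 for Cpt2). In Mof nKO the interval of Slc25a20 includes the neural estimate of -0.92, and that of Cpt2 lies above -0.90. The difference between cell types itself was not tested, and the library kits of endothelial and neural cells differed. The gene nearest to a call was Crot under the Kansl2 label, at 340, 280 and 268 against 425 to 713 in Cre, without overlap (-0.97 ± 0.36, unadjusted p = 0.0199, adjusted p = 0.831). Crat (-1.07 ± 0.53, adjusted p = 0.870) was at 308, 93.0 and 107 there, against 277 to 332 in Cre. Pericyte markers in these endothelial libraries summed to 322 to 410 CPM in Cre, 108 to 349.1 in Mof nKO, 48.1 to 170 under the Kansl2 label and 177 to 238 under the Kansl3 label, and their part in these values was not tested.

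In pericytes, the mural cells that wrap the endothelium, no gene of the 7 passed. In Mof nKO pericytes limma called 0% of 14112 genes (1888 had an unadjusted p under 0.05, and DESeq2 on recovered reads called 247); under the Kansl2 label 1.26% of 14402 genes fell and 0.951% rose, and under the Kansl3 label 1.24% of 14325 fell and 1.88% rose. Slc25a20 was at 91.6, 74.9, 90.6 and 109 in Cre and at 84.1, 108 and 73.5 in Mof nKO, fully overlapping. Under the Kansl2 label it was at 66.2, 127 and 83.4 (Cre 80.7 to 119.03) and under the Kansl3 label at 185, 117.4, 214 and 114 (Cre 92.2 to 133). The intervals were -0.72 to 0.61, -0.81 to 0.52 and -0.15 to 1.04, each above the neural point estimate of the same knockout. That estimate has its own error, and in Mof nKO its interval of -1.21 to -0.63 overlaps the pericyte one. The difference between the cell types was not tested. Cpt2 had changes of 0.41, -0.33 and -0.32 with intervals of -0.55 to 1.38, -1.27 to 0.62 and -1.21 to 0.58, and those of the Kansl2 and Kansl3 labels include the neural estimates (-1.19 and -1.19). Neural progenitor markers in these pericyte libraries summed to 2790 to 3727 CPM in Cre, 2801 to 5514 in Mof nKO, 1432 to 1834 under the Kansl2 label and 3931 to 5518 under the Kansl3 label, and their part in these values was not tested.

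Cpt1a was low in 2 of 3 Mof nKO pericyte libraries, at 69.9, 34.5 and 109 against 135, 88.3, 145 and 154 in Cre (-0.98 ± 0.39, unadjusted p = 0.0269, adjusted p = 0.314). The lowest value came from M_577, the library with the fewest reads (1572515) and the highest mitochondrial share in pericytes (11.1%). Without it the change was -0.54 (adjusted p = 0.513). Pericyte markers summed to 5520 to 7636 CPM in Mof nKO and to 10050 to 13060 in Cre, and their part in this value was not tested. Crat under the Kansl2 label was at 28.1, 41.9 and 123 against 80.4 to 157 (-0.97 ± 0.45, adjusted p = 0.269).

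Microglia were sequenced for Mof alone, and the 3 Mof nKO libraries disagreed with each other. Cpt2 was at 132, 144 and 99.4 in Cre and at 93.8, 1.42 and 0 in Mof nKO. Slc25a20 was at 97.9, 198 and 148 in Cre and at 167, 2.84 and 778 in Mof nKO, so the same group held its lowest and its highest value. Crot was at 234, 175 and 237 in Cre and at 615, 8.53 and 13.1 in Mof nKO, and Cpt1a at 244, 74.0 and 210 against 480, 387 and 3.28. The values near 0 rest on few reads, unlike the high ones: M646 held 1 read of Cpt2 and 2 of Slc25a20, and M689 held 1 read of Cpt1a and 237 of Slc25a20.

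Genes with at least 10 reads numbered 13433 to 14463 in Cre microglia and 11658, 8678 and 8202 in M643, M646 and M689. Microglial markers summed to 2471 to 4909 CPM in Mof nKO and 7996 to 10250 in Cre, and mitochondrial reads made up 5.54% to 16.5% against 4.41% to 6.43%. Their part in these values was not tested. No gene of the 6 tested passed, and limma called 0% of 13141 genes (1341 with an unadjusted p under 0.05; 735 by DESeq2 on recovered reads). Cpt2 had a change of -4.35 ± 1.80 (adjusted p = 0.470) and Crat, the one gene with all knockout values above Cre (450.0, 390 and 443 against 245 to 297), of 0.62 ± 0.46 (adjusted p = 0.687); as CPM its values overlapped (57.0 to 76.5 against 50.1 to 60.3). The median over all genes tested was -0.50. The authors' deposited changes were -1.96 for Cpt2, 1.09 for Slc25a20 and 0.72 for Cpt1a. Those here were -0.85 for Slc25a20 and -0.76 for Cpt1a, so the sign depended on the method. Slc22a5 had -3.30 ± 1.615 and did not pass. Without M643, Cpt2 (-6.32, adjusted p = 0.0455) and Crot (-4.21, adjusted p = 0.0456) passed, with 2 libraries left in the group. Those were the libraries with the fewest genes detected, M646 and M689. The share of all genes that passed in that refit is not given here, so these calls cannot be read as particular to these genes. Cpt1c was too low to test (0 to 32.1).

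In cultured pericytes given fatty acids, Slc22a5, Cpt1c, Crat and Crot fell, Cpt1a rose, and Slc25a20 and Cpt2 did not pass. That is 4 lower and 1 higher of 7, where 34.3% of 15625 genes fell and 32.3% rose. The median of the 7 was -0.70, beside -0.04 over all genes.

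Cpt1c had values of 162, 166 and 160 TMM-scaled CPM with vehicle and 102, 97.8 and 98.0 with fatty acids (-0.71 ± 0.06, adjusted p = 4.97e-05). Slc22a5 went from 35.8, 38.03 and 36.1 to 22.8, 21.8 and 21.8 (-0.72 ± 0.07, adjusted p = 6.62e-05). Both were far apart between groups and tight within them. Crot went from 75.4, 71.8 and 68.1 to 49.97, 37.8 and 44.9 (-0.70 ± 0.11, adjusted p = 0.000902), and Crat from 45.8, 47.1 and 46.6 to 32.8, 22.8 and 26.2 (-0.77 ± 0.13, adjusted p = 0.00130). Neither overlapped, though the treated libraries spread more than the vehicle ones.

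Cpt1a, a known target of fatty acid-activated PPAR receptors, was at 93.5, 90.1 and 93.0 with vehicle and at 136, 106 and 108 with fatty acids (0.34 ± 0.10, adjusted p = 0.0214). Without any one vehicle library this call was lost (adjusted p = 0.0643, 0.0820 and 0.0683). Slc25a20 (42.6, 40.0 and 39.1 against 43.9, 33.9 and 36.8) had a change of -0.09 ± 0.10 and Cpt2 (25.9, 24.9 and 24.3 against 27.6, 21.5 and 23.2) of -0.05 ± 0.10. After TMM scaling, the first fatty acid library was the highest of its group for all 7 genes. That order depends on the scaling: as unscaled CPM, the group ran only from 92.3 to 94.1 for Cpt1c and from 20.7 to 20.9 for Slc22a5. Without that library Slc25a20 (-0.19, adjusted p = 0.0229) and Cpt2 (-0.16, adjusted p = 0.0482) passed as lower.

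**Figure D3:**
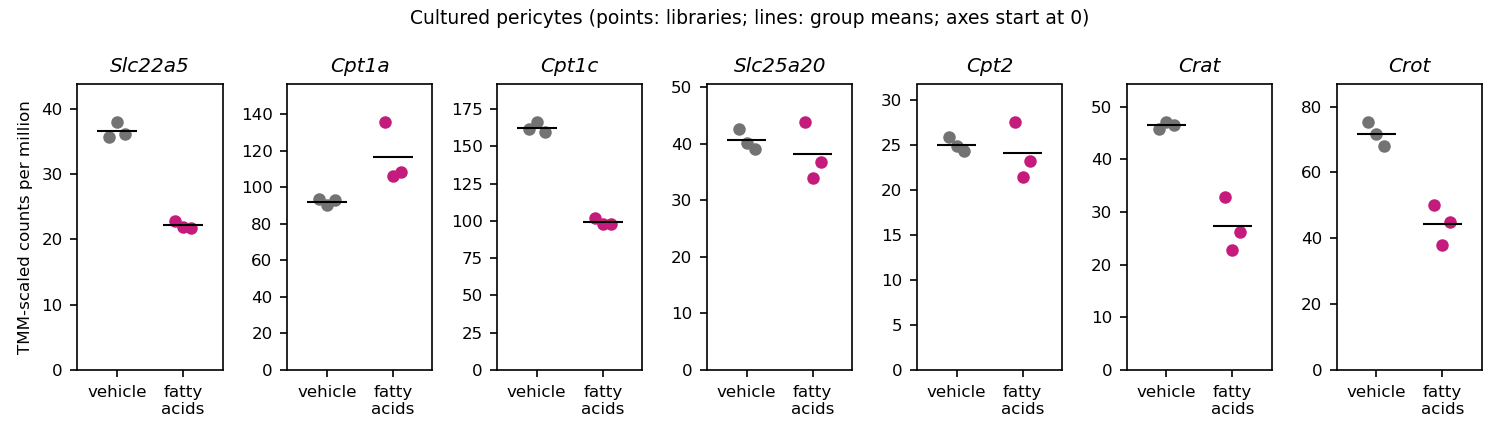
TMM-scaled CPM of the 7 genes in cultured pericytes with vehicle (grey) and fatty acids (magenta); points are libraries, lines group means, and each axis starts at 0. Slc22a5, Cpt1c, Crat and Crot are lower with fatty acids without overlap, Cpt1a is higher, and Slc25a20 and Cpt2 overlap.

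The cultures were far from sorted pericytes in their markers. The 7 pericyte markers summed to 133 to 146 CPM with vehicle and 16.1 to 19.8 with fatty acids, against 10050 to 13060 in sorted Cre pericytes; Kcnj8 was at 0 in all 3 vehicle libraries, and Pdgfrb alone went from 127 to 140 down to 12.8 to 16.8. Fibroblast markers summed to 402 to 412 with vehicle and 81.7 to 104 with fatty acids. Their part in the changes of the 7 genes was not tested.

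In control cells each gene had its own order across populations. These levels are CPM without TMM scaling, not corrected for gene length, so they compare populations and not genes, and the library kits differ: TruSeq for whole brain, neural cells and culture, SMART-Seq v4 with Nextera XT for endothelial cells, pericytes and microglia. The library total includes mitochondrial reads, which were 14.4% to 22.5% in Cre whole brain and 0.427% to 0.436% in Cre neural cells. Their part in these levels was not tested. Cpt1a was highest in endothelial cells (146 ± 82.0, SD, n = 4, with Cre130 at 34.4), overlapping vehicle cultures (98.3 ± 1.91), then pericytes (39.5 ± 8.97), microglia (35.9 ± 18.4), whole brain (17.7 ± 2.67) and neural cells (15.5 ± 2.96), of which neighbours overlapped from pericytes down. Cpt1c had another order, highest in cultures (173.4 ± 4.26), then pericytes (52.0 ± 6.71) and whole brain (51.6 ± 4.37), which overlapped, neural cells (38.6 ± 5.93), endothelial cells (6.39 ± 4.01) and microglia (0.860 ± 0.779).

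Slc25a20 was highest in endothelial cells (70.6 ± 36.2) and cultures (43.3 ± 2.09), which overlapped, followed by microglia (30.1 ± 10.2), pericytes (27.7 ± 4.47) and neural cells (25.7 ± 3.29), which overlapped too, and whole brain (18.7 ± 0.880). Cpt2 was lowest in whole brain (6.35 ± 0.685) and neural cells (6.06 ± 0.688), which did not differ beyond their spread, below pericytes (17.8 ± 3.42), microglia (25.5 ± 4.61), cultures (26.7 ± 0.966) and endothelial cells (44.9 ± 17.1). Crat was highest in microglia (56.8 ± 5.82) and cultures (49.6 ± 0.666), above whole brain (30.9 ± 1.74), pericytes (30.0 ± 9.73), endothelial cells (24.9 ± 3.31) and neural cells (22.7 ± 2.05), the last 4 overlapping in turn.

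Crot was highest in cultures (76.5 ± 4.23), with pericytes (54.5 ± 12.2), endothelial cells (48.0 ± 12.3) and microglia (44.0 ± 7.22) overlapping, then neural cells (28.4 ± 2.003) and whole brain (19.8 ± 1.06). Slc22a5 was highest in cultures (39.1 ± 1.35), then endothelial cells (23.8 ± 2.46), whole brain (13.6 ± 2.52), pericytes (11.9 ± 5.98) and neural cells (11.4 ± 1.06), which overlapped, and microglia (6.07 ± 1.97). For all 7 genes the vehicle cultures lay above the sorted Cre pericytes without overlap. The share of all genes that separate this way is not given here. These groups also differ in library kit, depth, age and culture, so the pattern cannot be read as particular to these genes.

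**Figure D4:**
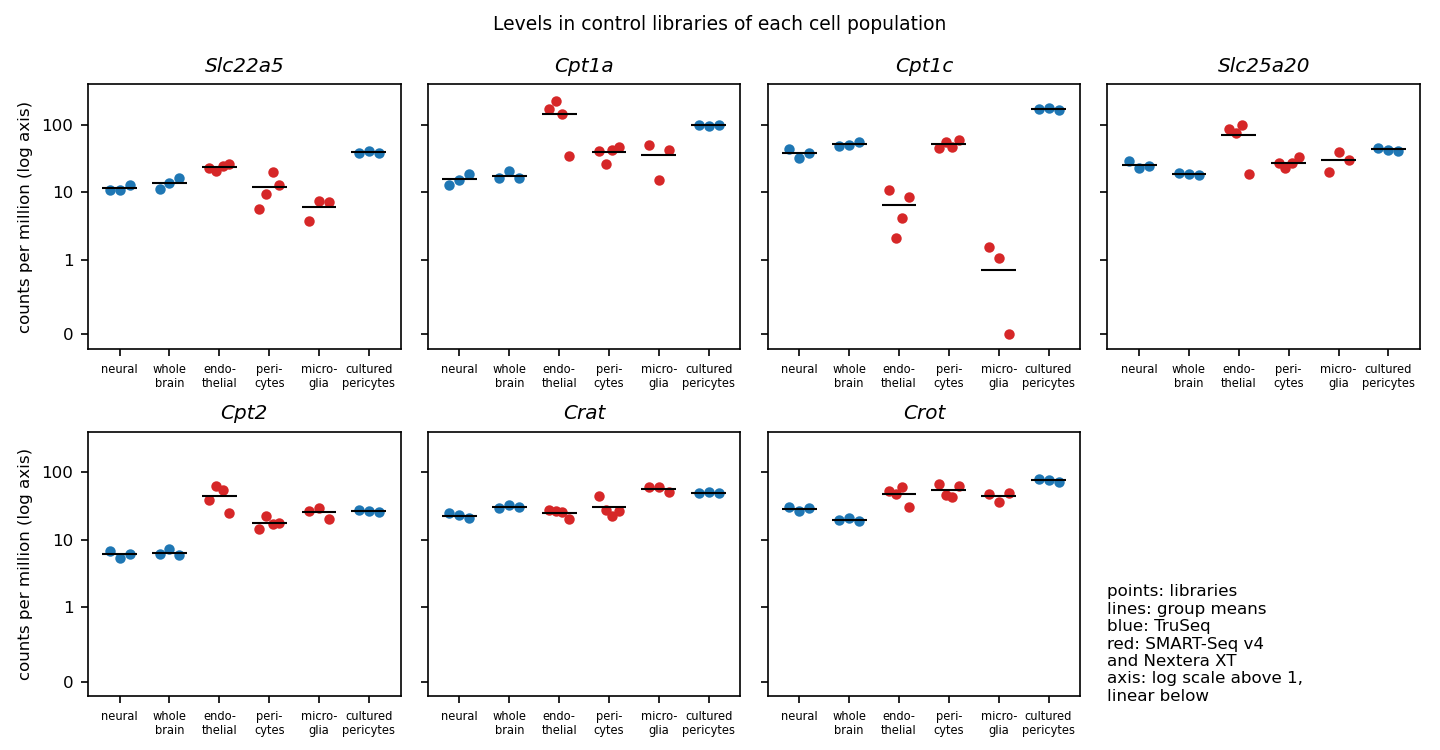
CPM of the 7 genes in control libraries of each population (log axis above 1, linear below; points are libraries, lines means, colour the library kit). Cpt1a peaks in endothelial cells with 1 low library (Cre130), and Cpt1c is near 0 in microglia and low in endothelial cells.

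Neighbouring steps of the pathway were followed as lists chosen with earlier results of these data known. In neural cells 17.1%, 22.1% and 28.8% of all genes fell and 19.4%, 20.1% and 26.4% rose, in the order Mof nKO, Kansl2 label, Kansl3 label; the counts of each list below stand in that order against these shares. There, 8, 9 and 10 of 16 mitochondrial beta-oxidation genes fell in Mof nKO and under the Kansl2 and Kansl3 labels, and 2, 1 and 2 rose; the list's medians were -0.36, -0.28 and -0.40, beside 0.00, 0.01 and 0.01 over all genes. Decr1, which reduces unsaturated intermediates, had changes of -1.13 ± 0.19, -1.25 ± 0.21 and -1.12 ± 0.17. Acadvl, the very-long-chain dehydrogenase, fell by 0.50, 0.71 and 0.80, and Acad9, also an assembly factor of complex I, by 0.50, 0.68 and 0.81 on the log2 scale. Eci1, an enoyl-CoA isomerase, rose under the Kansl2 label (0.63 ± 0.14).

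The peroxisomal list, whose products Crot hands on, had 5, 7 and 7 of 10 genes lower and 1, 0 and 0 higher, with medians of -0.42, -0.61 and -0.57. Scp2, a thiolase and sterol carrier, fell by 0.57, 0.86 and 1.22, Acaa1a, a thiolase, by 0.86, 0.77 and 0.77, and the oxidase Acox3 by 1.53 and 1.28 under the Kansl2 and Kansl3 labels. The shares of all genes that fell were 17.1%, 22.1% and 28.8%. Abcd2, a very-long-chain importer, rose in Mof nKO (0.33 ± 0.07).

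Upstream, among 10 genes of acyl-CoA supply and malonyl-CoA control, 1, 4 and 4 fell and 1, 1 and 2 rose, against 17.1%, 22.1% and 28.8% of all genes that fell and 19.4%, 20.1% and 26.4% that rose. Acaca, which makes the malonyl-CoA that inhibits Cpt1a, rose in all 3 comparisons (0.23 ± 0.06, 0.39 ± 0.08 and 0.52 ± 0.08), and Mlycd, which removes malonyl-CoA, fell under the Kansl3 label (-0.97 ± 0.17). The ligase Acsl6 fell by 0.47, 0.39 and 0.39. Tmlhe, the first enzyme of carnitine synthesis, fell by 1.36, 0.96 and 0.97. Of the 3, 3 and 4 tested genes of other carnitine transport and synthesis, 2, 1 and 1 fell and none rose; the second in Mof nKO was Aldh9a1, of the same synthesis route (-0.67 ± 0.18).

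Of 9, 11 and 11 PPAR regulators and targets tested, 3, 5 and 5 rose and 1 each time fell. Rxra, the partner receptor of PPARs, rose by 0.38, 0.52 and 0.52, and Ppargc1a, a coactivator of oxidative genes, by 0.80 and 1.10 under the Kansl2 and Kansl3 labels. Plin2, a lipid droplet coat protein, fell in Mof nKO and Kansl2-labelled neural cells (-0.91 ± 0.13 and -0.77 ± 0.12). Other calls of these genes, chosen after their values were seen, were Plin2 (-0.46 ± 0.12) and Abcd2 (-0.34 ± 0.08) under the Kansl3 label, Mlycd (-0.62 ± 0.19) under the Kansl2 label, and Acox3 (-0.44 ± 0.13) and Eci1 (0.59 ± 0.14) in Mof nKO.

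**Figure D5:**
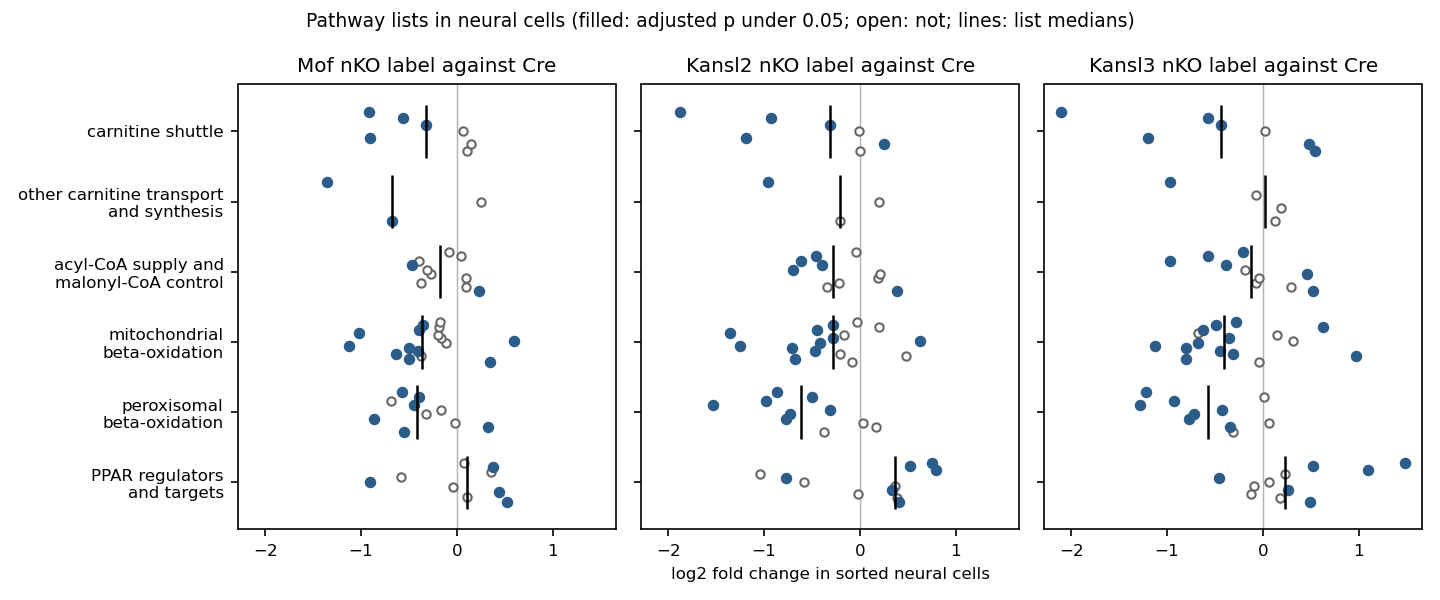
Log2 fold changes (x axis) of each tested gene of the shuttle and of 5 lists (rows) in neural cells of the 3 knockouts (panels); filled points have an adjusted p under 0.05 and bars are list medians. Shuttle points spread from Slc25a20 on the far left to Cpt1c and Cpt1a on the right under the Kansl3 label.

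In whole brain 4.04%, 16.2% and 18.8% of all genes fell and 1.93%, 10.4% and 15.2% rose. The same lists gave 3, 7 and 8 of 16 mitochondrial genes lower and 0, 0 and 1 higher, and 3, 4 and 7 of 11 peroxisomal genes lower and none higher. Acox3 fell by 0.59, 1.11 and 1.09 there, and Scp2 by 0.68, 0.94 and 1.03. Of 11 acyl-CoA supply genes 0, 1 and 3 fell and 0, 1 and 1 rose, the riser being Cd36, a fatty acid receptor also made by phagocytes and vessels (3.33 ± 0.27 and 3.18 ± 0.27 under the Kansl2 and Kansl3 labels). Of 13 PPAR genes 0, 5 and 4 rose, among them Plin2 (1.23 ± 0.14 and 1.27 ± 0.14), which went the opposite way in neural cells. Of 6 genes of other carnitine transport and synthesis 1, 1 and 0 fell (Slc22a21, a carnitine transporter, at -1.33 ± 0.28 in Mof nKO, and Tmlhe at -0.75 ± 0.22 under the Kansl2 label).

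In fatty acid cultures, where 34.3% of all genes fell and 32.3% rose, 6 of 15 mitochondrial genes fell and 1 rose, with Acadm, the medium-chain dehydrogenase, at -2.49 ± 0.15 and Acadl at 1.48 ± 0.06. Of 13 peroxisomal genes 7 fell and 1 rose, led by Abcd2 (-4.19 ± 0.18). The lipid droplet gene Plin2 (3.03 ± 0.18) and the thioesterase Acot2 (3.56 ± 0.15) were among 8 of 16 PPAR genes that rose, while 6 fell, Ppara itself at -1.38 ± 0.13. Slc22a4, a relative of Slc22a5, rose by 3.71 ± 0.21 on the log2 scale, and Slc16a9, a carnitine exporter, had -2.72 ± 0.15. Of the 10 acyl-CoA supply genes 4 fell and 2 rose. In sorted pericytes, genes of these lists that passed included Scp2 (-1.24 ± 0.23), Acot1 (-2.01 ± 0.30) and Aldh9a1 (-2.31 ± 0.51) under the Kansl2 label, and Acox3 (-2.10 ± 0.53) and Etfdh (0.85 ± 0.19) under the Kansl3 label.

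Genes with the most similar pattern were sought among 13157 genes by the smaller of 2 Pearson correlations of log2(CPM + 1), over the 12 whole-brain and the 12 neural libraries. These libraries include all 4 genotypes, so the values describe differences between groups as well as between libraries. For Slc25a20 the closest were Gdap1 (0.96 and 0.96), Zfp677 and Mocs2, and for Cpt2 Cog7 (0.91 and 0.94), Rnf185 and Coa5. For Crot they were Taf1b, Zfp946 and Zfp944 and for Slc22a5 Tmem136, Zfp946 and Zfp874b, so Zfp946 was shared. Cpt1a came closest to Actr2, Usp2 and Egfr, Cpt1c to Igdcc4, Fmnl3 and Jag2, and Crat to Thnsl2, Eepd1 and Osbpl5, the last set at no more than 0.70 by the smaller value.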

How the data were processed

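RNA sequencing libraries of whole brain, sorted cells and cultured pericytes were analysed; the 21 chromatin samples of the series were not analysed here. Per the submitters' processing notes, reads were aligned to mm10 with STAR, counted with featureCounts and compared with DESeq2; versions: not given in the sources used here. Whole-brain and culture tables held raw counts per gene deposited by the authors. Sorted-cell tables held a normalized signal, the authors' counts divided by a size factor for each library; in all of its columns the values were whole multiples of 1 read within a tolerance of 0.01, which gave the reads behind them. The authors' deposited tables of comparisons gave log2 fold changes and adjusted p-values.

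Counts were tested with edgeR's quasi-likelihood test (version 4.0.16, TMM scaling, filterByExpr), with the 12 whole-brain libraries in 1 fit. Sorted-cell values were tested in each table with limma (3.58.1, trend) on log2(value + 1) over genes with a mean of at least 10, a scale that understates changes of low genes. P-values were adjusted by Benjamini and Hochberg over every gene of a fit, with 0.05 as the threshold for passing. Errors are SE for fold changes. The scripts were tested on simulated data. DESeq2 (1.42.0), no filter, another pseudocount, edgeR on recovered reads, RLE scaling, fits of 2 groups alone and leaving out each library were the alternatives; knockout contrasts in neural cells were added after the data had been seen.

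The 7 genes and the pathway lists were chosen with earlier results of these data known. All 7 are named in each comparison; of each list, up to 4 genes with the smallest p among those that passed are named per comparison, and 1 of them is not reported here. Levels of different genes were not compared, since gene lengths were not used here. One endothelial column was placed by its group. No 2 libraries agreed within sampling noise.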

Additional observations from a re-analysis of the deposited data

Results flagged for a closer look

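In a pericyte library labelled Kansl3 nKO (K3_333), Cpt2 stood at 33.7 CPM, far from the other 3 libraries of its group. Among 28 pairs of a gene and a group of 4 libraries, chance flags about 1 in 20. Without it the Kansl3-label change of Cpt2 in pericytes went from -0.32 (adjusted p = 0.721) to -0.73 (adjusted p = 0.290).

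Between knockouts of neural cells, 5 differences passed when tested directly with edgeR on recovered reads. Of all 14785 genes tested, 6.63% passed between Mof nKO and the Kansl2 label and 42% between Mof nKO and the Kansl3 label. Between the Kansl2 and Kansl3 labels 24% passed. Slc25a20 was higher in Mof nKO than under the Kansl2 label (0.97 on the log2 scale) and than under the Kansl3 label (1.17). Cpt1a was lower in Mof nKO than under the Kansl3 label (-0.47) and lower under the Kansl2 than under the Kansl3 label (-0.51). Cpt1c was lower in Mof nKO than under the Kansl3 label (-0.37).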

How the results depend on the processing

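No change of the 7 genes that had passed reversed its sign in any alternative. Over all alternatives, 280 values of calls kept their side of the threshold and 45 lost it, and of values that had not passed 1088 stayed so and 8 passed. Counts of the 7 genes passing moved most with no filter between Mof nKO and the Kansl2 label in whole brain (2, from 0), and under the Kansl2 label in neural cells with no filter and with DESeq2 on recovered reads (3 each, from 5). Single calls were lost too. Crot was lost under the Kansl2 label in whole brain (no filter, DESeq2, those groups alone) and in Mof nKO neural cells (DESeq2 on recovered reads). Cpt1c was lost under the Kansl2 label in neural cells with edgeR on recovered reads. Leaving out 1 library gave 0 to 2 in Mof nKO whole brain, 2 to 4 under the Kansl2 label and 2 under the Kansl3 label there, 0 to 1 between Mof nKO and the Kansl2 label, 2 to 4, 3 to 4 and 6 in the 3 neural comparisons, 1, 2 to 3 and 0 to 2 between neural knockouts, 4 to 7 in culture and 0 to 2 in microglia. The cause was not tested.

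Over all genes, Mof nKO whole brain had 972 calls (314 higher), 1636 with no filter (862 higher) and 1229 with DESeq2 (507 higher), and 170 to 1253 without single libraries. Mof nKO against the Kansl2 label in whole brain had 1409 calls, and 284 with those groups alone; the Kansl2 against the Kansl3 label had 6, and 848 with no filter, 91 with DESeq2 and 1 with those groups alone. Pericytes had 318 calls under the Kansl2 label (794 with DESeq2) and 446 under the Kansl3 label (1144 with DESeq2, 286 with no filter). The median over all genes shifted to 0.21 with DESeq2 in culture and to 0.22 with no filter in Mof nKO endothelial cells.

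Replicate numbers of the culture were shared between vehicle and fatty acids, with correlations of same-numbered deviations of 0.223, 0.148 and 0.0477; fatty acid library 2 correlated best with vehicle 3. A fit with the number as a block called 5 of the 7 genes, as without it, and 10458 genes against 10404.

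Depth limits the low genes most: in microglia a value of Cpt2 rested on 1 read. Adult cultured cells, 1 developmental stage and 3 or 4 libraries a group limit the rest.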
